A study of Mus musculus with 6 samples.

Results

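The metallothioneins described here are the genes MT1E, MT1F, MT1G, MT1H, MT1X and MT2A, read by every probe set of the HG-U133A array whose single annotated symbol was one of these 6. A probe set is the group of short oligonucleotides that together give 1 signal for a transcript. The rule found 10 probe sets of 22283 in the table, for 6 genes of 11963 with a probe set of their own. They were picked for how they differed between myoblast and myotube arrays, so their differences are given as a description, with no test. Of the 10, 9 carry the array maker's suffix "_x_at", which marks probe sets whose oligonucleotides also match other sequences. Signal from near-identical metallothionein transcripts can therefore be shared among these 9, and they are not independent readings of separate genes. The one without that suffix is 210472_at, for MT1G.

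The RNA came from C2C12 cultures by its labels. C2C12 is an established line of mouse muscle precursors, myoblasts, which stop dividing and fuse into myotubes when serum is lowered. There were 3 myoblast arrays and 3 myotube arrays. The myotube cultures had 2.5% horse serum, and the growth medium of the myoblasts and the time in culture are not given in the sources used here. The RNA is labelled as mouse while the arrays were designed against human transcripts, and the species was not settled, so gene names are those of the human probe sets. Separate cultures within a group are not stated, so a p-value here reflects nothing beyond the spread among these arrays, which may be technical.

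Metallothioneins are small, cysteine-rich proteins that bind zinc and copper and can also hold toxic metals such as cadmium. Free zinc activates the transcription factor MTF1, which binds short metal response elements in metallothionein promoters, and glucocorticoids and oxidative stress induce these genes as well. MT1 and MT2 forms are made in most tissues, skeletal muscle among them, whereas MT3 is known mainly from brain and MT4 from stratified epithelium. Humans carry a cluster of MT1 genes, while the mouse has Mt1 and Mt2 as its widely expressed forms.

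None of the 6 member symbols was in the table of RefSeq promoter windows available here, which is of the mouse (0 matched). The mouse genes Mt1 and Mt2 are shown in their place, because the labels give the RNA as mouse. Each window runs from 250 bases before to 50 after the start that the table uses, on build GRCm38.p6. The Mt1 window is chr8:94178839-94179138 and the Mt2 window chr8:94172368-94172667, both on the + strand. Capitals mark matches to the core of the metal response element, searched on both strands as TGCACNC and TGCGCNC.
Mt1: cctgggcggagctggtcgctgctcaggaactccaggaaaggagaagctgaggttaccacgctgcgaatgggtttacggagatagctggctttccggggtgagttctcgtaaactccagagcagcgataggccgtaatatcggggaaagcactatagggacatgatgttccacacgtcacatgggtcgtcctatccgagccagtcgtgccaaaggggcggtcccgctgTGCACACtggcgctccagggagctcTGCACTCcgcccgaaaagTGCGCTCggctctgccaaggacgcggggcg
Mt2: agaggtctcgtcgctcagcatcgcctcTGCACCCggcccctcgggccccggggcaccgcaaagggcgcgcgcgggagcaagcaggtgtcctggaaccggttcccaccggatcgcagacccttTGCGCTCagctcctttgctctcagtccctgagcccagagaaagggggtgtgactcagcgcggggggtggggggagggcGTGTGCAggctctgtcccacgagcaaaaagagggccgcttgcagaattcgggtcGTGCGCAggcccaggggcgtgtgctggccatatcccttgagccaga
The Mt1 window held 3 matches and the Mt2 window 4, with no overlap between them. Mt3 and Mt4, the tissue-restricted forms, held 1 each. Of 32851 windows of the same length, 25.7% held at least 1 match, 1.97% at least 3 and 0.517% at least 4. A match is a description of these letters only.

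**Figure D1:**
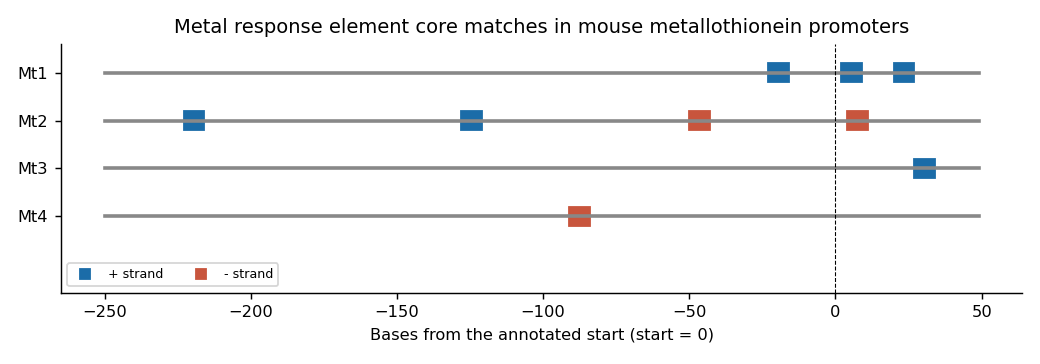
Positions of the metal response element core in the RefSeq promoter windows of the 4 mouse metallothionein genes, in bases from the annotated start, with the strand in colour. Mt1 has 3 matches between -23 and 26, Mt2 has 4 between -223 and 10, and Mt3 and Mt4 have 1 each.

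The arrays differed in ways that touch these bright genes. Across probe sets (not replicates of each other), Pearson's r of log2 signals was 0.988 between myoblast arrays 2 and 3, and 0.831 to 0.924 for every other pair of arrays. The highest signal of any gene probe set was 69542 and 70520 on myoblast arrays 2 and 3, and between 172188 and 399367 on the other 4 arrays. The highest signal among control probe sets for transcripts that were not added to the sample ran from 252 to 1040 per array, and values at or below it were not told from background. Scan day and chip lot cannot be told apart from group, since no day and no lot held arrays of both groups. Laboratory series were inferred here from code numbers in the run records, a step of more than 1 starting a new series. By that rule myoblast array 1 was in a series with the 3 myotube arrays and myoblast arrays 2 and 3 formed another. The differences of the metallothioneins and of the called related genes are therefore also given without myoblast array 1.

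All 9 metallothionein probe sets with the suffix had lower signals on every myotube array than on any myoblast array. Over all 13315 probe sets kept after a filter on dim ones, 15.5% had groups that did not overlap in this direction. Differences below are myotube minus myoblast means of log2(signal + 197), with the SE of a limma fit over all probe sets. The median of the 9 was -2.13, or 4.39-fold lower, against 0.09 over all probe sets kept. By limma with Benjamini-Hochberg adjustment 8 of the 10 members were lower past the threshold of 0.05 and none higher, where 6.41% of all probe sets passed lower and 4.93% higher. Since the members were picked on this contrast, nothing is read from that count.

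**Figure D2:**
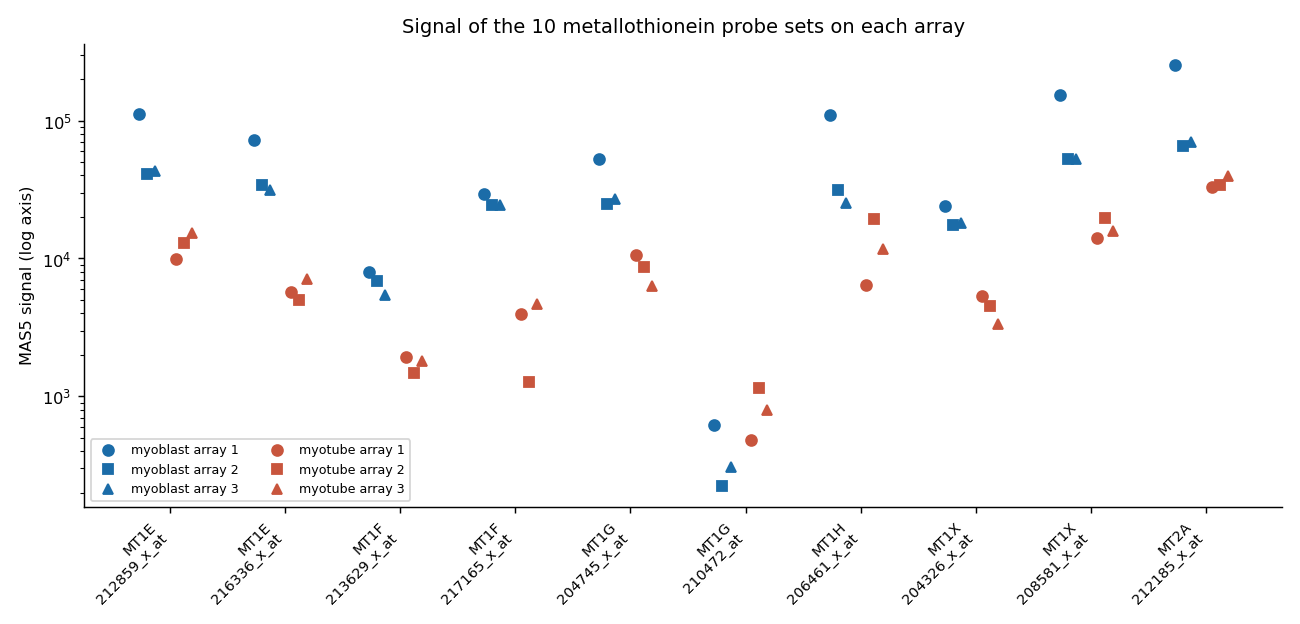
MAS5 signal (log axis) of the 10 metallothionein probe sets on each of the 3 myoblast (blue) and 3 myotube (red) arrays, 1 point per array. In 9 probe sets all myoblast points lie above all myotube points, and in MT1G 210472_at, the dimmest, the groups overlap.

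MT1F, an MT1 isoform, held the largest difference. Its probe set 217165_x_at gave 29254, 24452 and 24496 in myoblasts (arrays in the order 1, 2, 3 here and below) and 3943, 1263 and 4712 in myotubes. The myoblast arrays lay close together, and myotube array 2 was the lowest. The difference was -3.08 ± 0.38 (SE, n = 3 per group), or 8.45-fold lower. The second MT1F probe set, 213629_x_at, was dimmer, with 8033, 6833 and 5397 in myoblasts and 1915, 1475 and 1809 in myotubes. Its groups were also well apart, with a difference of -1.84 ± 0.21, or 3.57-fold. Both MT1F probe sets thus went the same way, by unequal amounts.

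MT1E, another MT1 isoform, was read by 216336_x_at at 72534, 34022 and 31339 in myoblasts and 5757, 4960 and 7121 in myotubes. The lowest myoblast array was 4.40 times the highest myotube array. The difference was -2.82 ± 0.31, or 7.04-fold lower. Its other probe set, 212859_x_at, gave 112405, 40637 and 42830 in myoblasts against 9976, 13005 and 15223 in myotubes. Myoblast array 1 was far above the other 2 in both, and the groups remained apart without it. The difference of 212859_x_at was -2.19 ± 0.37, or 4.57-fold.

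MT1X, a further MT1 isoform, gave 24111, 17382 and 18038 in myoblasts and 5340, 4522 and 3330 in myotubes with 204326_x_at. With 208581_x_at it gave 152678, 52728 and 52882 in myoblasts and 13968, 19797 and 15761 in myotubes. The myotube arrays were low in both, and only the second had myoblast array 1 far above the rest of its group. The differences were close to each other, -2.13 ± 0.22 and -2.19 ± 0.39.

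MT1H, also of the MT1 group, had the widest spread. Its probe set 206461_x_at gave 109027, 31179 and 25125 in myoblasts and 6439, 19460 and 11764 in myotubes. The lowest myoblast array was 1.29 times the highest myotube array, so the gap between groups was narrow. The difference was -1.93 ± 0.53, or 3.82-fold lower, and 2.43-fold without myoblast array 1. It passed the limma threshold, and that call was lost in 6 of 19 other settings.

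MT1G was the one member whose probe sets disagreed. With 204745_x_at it gave 52519, 24639 and 27102 in myoblasts and 10516, 8677 and 6295 in myotubes, a difference of -1.95 ± 0.30. With 210472_at, the probe set without the suffix, it gave 623, 223 and 309 in myoblasts and 479, 1153 and 793 in myotubes. Those groups overlapped, and 3 of the 6 values did not exceed their array's highest unspiked control. The difference was 0.79 ± 0.43. The one member reading without the suffix was thus near background.

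MT2A, the human MT2 gene, gave 252750, 65939 and 69539 in myoblasts with 212185_x_at. In myotubes it gave 33249, 34226 and 39804, with an SD of 3536 around a mean of 35760 (n = 3). The myotube arrays agreed closely, and the myoblast arrays did not. The difference was -1.55 ± 0.47, and the groups did not overlap. Of the members with the suffix it alone did not pass the limma threshold, and it passed in 8 of 19 other settings. On myoblast arrays 2 and 3 the MT2A signal stood at 94.8% and 98.6% of the highest signal of any gene probe set on that array, against 81.0% on myoblast array 1 and 8.33% to 23.1% in myotubes. Whether those 2 arrays could have shown a higher value was not tested.

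Position within an array does not depend on its scaling. Among 22215 gene probe sets MT2A ranked 10, 5 and 2 from the top on myoblast arrays 1, 2 and 3, and 248, 236 and 222 on the myotube arrays. MT1E 216336_x_at ranked 143, 165 and 202 in myoblasts and 1469, 1663 and 1287 in myotubes. MT1F 217165_x_at ranked 305, 282 and 300 in myoblasts and 2263, 7771 and 2011 in myotubes. In each of these 3 probe sets the ranks of the groups did not overlap.

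Myoblast array 1 was the highest of the 6 arrays for all 9 probe sets with the suffix. Its signal over the mean of myoblast arrays 2 and 3 was 3.87 for MT1H, 3.73 for MT2A, 2.89 for MT1X 208581_x_at, 2.69 and 2.22 for MT1E and 2.03 for MT1G 204745_x_at. It was 1.36 for MT1X 204326_x_at, and 1.31 and 1.20 for MT1F. The ratio also varied with brightness over other probe sets. Among 117 others with a mean above 40000 on arrays 2 and 3 the median ratio was 2.75, and 5% to 95% of them lay between 1.75 and 4.83. Among 251 between 20000 and 40000 the median was 1.39, with 0.732 to 2.38. Among 1694 between 5000 and 20000 the median was 0.865, with 0.474 to 1.43. MT1H, with a mean in the second range, lay above its limits, as did MT1HL1, an MT1H-like gene outside the rule, at 3.61. The other member probe sets lay inside the limits of their ranges, and each of the 9 with the suffix but MT1E 212859_x_at and MT1F 217165_x_at lay above the median of its range. The geometric mean of the spike-in controls was 48119 on myoblast array 1, against 3539 and 4275 on the other myoblast arrays. On myotube arrays 1, 2 and 3 it was 71439, 33504 and 12320, so myoblast arrays 2 and 3 were the lowest of all. Its part in the result was not tested.

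**Figure D3:**
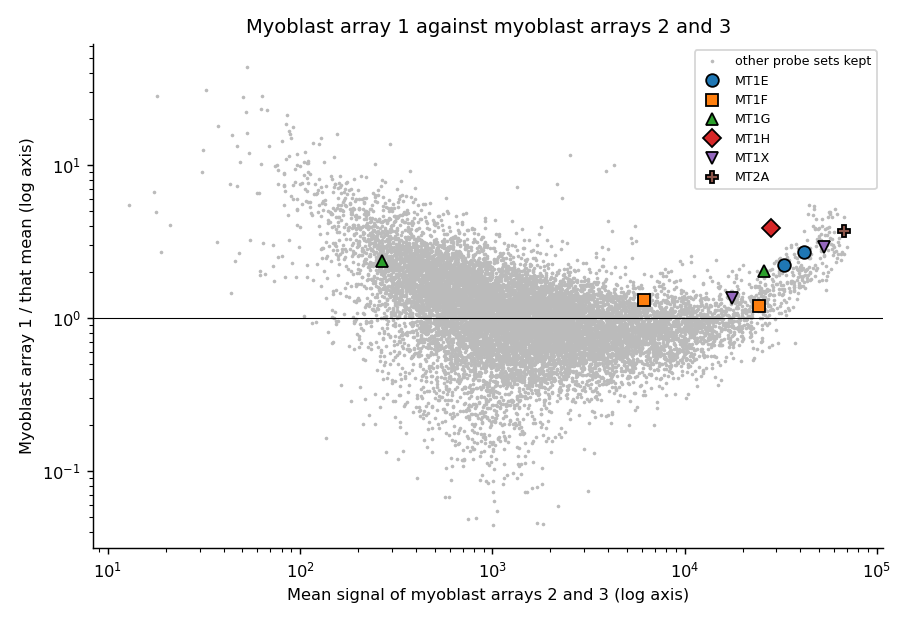
Signal of myoblast array 1 divided by the mean of myoblast arrays 2 and 3, against that mean, for each probe set kept (grey) and the 10 metallothionein probe sets (colour), both axes log. The ratio climbs for the brightest probe sets, where MT2A, MT1X and MT1E sit, and MT1H at 3.87 lies above most probe sets of its brightness.

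Without myoblast array 1 the difference was smaller in every probe set with the suffix, with a median of -1.71 against -2.13. For MT1E it was then -1.72 with 212859_x_at and -2.43 with 216336_x_at, for MT1X 208581_x_at -1.68 and for MT1F 213629_x_at -1.71. MT2A then differed by 1.89-fold and MT1G 204745_x_at by 3.06-fold. MT1F 217165_x_at, at 7.97-fold, and MT1X 204326_x_at, at 3.96-fold, moved little. A block for laboratory series leaves the contrast to myoblast array 1 and the myotubes, and under it the median became -3.14 and MT2A differed by 7.06-fold. MT1H differed by 9.42-fold in that fit. The sizes of MT1H and MT2A therefore moved over 3 times between these choices of myoblast arrays. The direction was the same in all 9, which groups that do not overlap make certain. After quantile normalization, which gives every array the same distribution, MT2A differed by 5.68-fold.

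**Figure D4:**
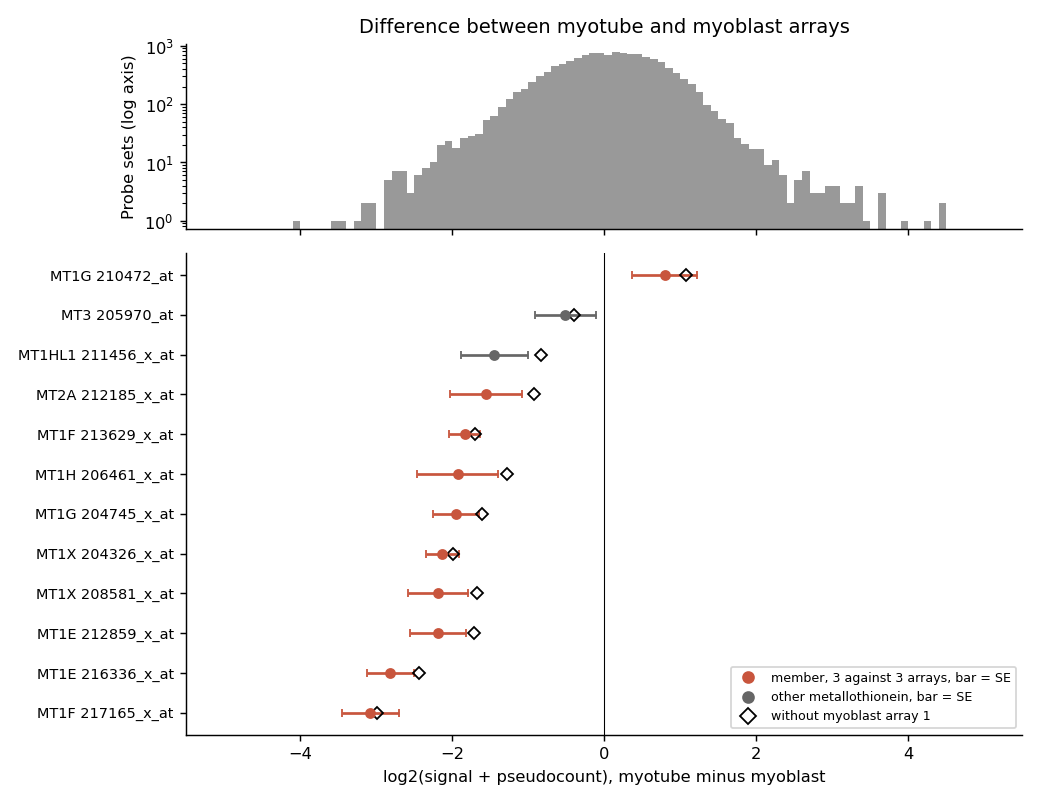
Upper panel, number of probe sets (log axis) at each log2 difference, myotube minus myoblast, over all probe sets kept. Lower panel, the metallothioneins that passed the filter, with SE bars (n = 3 per group) and open diamonds for the value without myoblast array 1. Of the members, 9 lie between -3.08 and -1.55, and MT1G 210472_at lies at 0.79.

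The other metallothionein genes on the array were not chosen by the rule. MT1HL1 has a probe set with the same suffix, 211456_x_at, which gave 90022, 28961 and 20903 in myoblasts and 12989, 16344 and 12314 in myotubes. Its groups did not overlap, and its difference of -1.45 ± 0.44 did not pass the threshold. It passed in 8 of 19 other settings, among them without myoblast array 1 (-0.83). With the block for laboratory series the difference was -2.69, so its size went from 1.77-fold without myoblast array 1 to 6.46-fold with the block. The direction was fixed in both, since the groups did not overlap. MT1M, read by 217546_at, was dim, at 209, 353 and 310 in myoblasts and 45.6, 87.1 and 31.0 in myotubes. It was left out by the filter, with 4 of 6 values at or below the unspiked controls. MT3, the brain form, gave 1389, 1165 and 967 in myoblasts and 1238, 306 and 996 in myotubes, with overlapping groups and a difference of -0.52 ± 0.40. MT4, the epithelial form, was at or below the unspiked controls on 5 of 6 arrays.

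Zinc transport and sensing genes, the partners of metallothioneins in zinc handling, showed no called change. Of 12 measured, 0 passed by limma, with 1 higher and 2 lower at an unadjusted p under 0.05, where 12.1% of all 8150 genes passed, 5.4% higher and 6.74% lower. Their median was 0.03, against 0.12 over all genes. MTF1, the zinc-sensing activator, gave 1437, 982 and 1019 in myoblasts and 1853, 2015 and 1359 in myotubes. These groups overlapped (0.53 ± 0.26, limma adjusted p = 0.201). SLC30A1, the zinc exporter that MTF1 also controls, gave 1155, 2817 and 2280 in myoblasts and 204, 900 and 1637 in myotubes. These overlapped too, with a difference of -1.22 ± 0.51 (limma adjusted p = 0.144). The values of myotube arrays 1 and 2 lay below the unspiked controls of those arrays, so the size of the difference depends on the pseudocount. The difference was -0.61 without myotube array 1, -1.70 without myotube array 3, -1.55 without myoblast array 1 and -0.54 with a block for laboratory series. SLC30A1 passed as lower only with the replicate number as a block, among 19 other settings. The importer SLC39A8 differed by 0.92 ± 0.34 and the exporter SLC30A5 by -0.91 ± 0.35 (limma adjusted p = 0.105 and 0.119).

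Of 11 copper handling genes 1 fell and 0 rose (2 higher at an unadjusted p under 0.05 by limma), with a median of -0.32. Over all 8150 genes 6.74% fell and 5.4% rose, with a median of 0.12, so nothing is read from these small counts. The 1 copper gene that fell was COX11, which delivers copper to cytochrome oxidase (-1.29 ± 0.31, limma adjusted p = 0.0253). It gave 1622, 3200 and 2924 in myoblasts and 777, 727 and 1265 in myotubes. That call was lost without myoblast array 2 or 3 or myotube array 1 or 2, and 1 of its 2 probe sets kept by the filter passed. SOD1, the copper and zinc superoxide dismutase, differed by -0.32 ± 0.20 (limma adjusted p = 0.304). Of 12 iron handling genes 2 rose and 0 fell by their brightest probe set, with a median of 0.25. At an unadjusted p under 0.05 by limma 4 were higher and 0 lower. The 2 that rose were BLVRB, a biliverdin reductase (1.32 ± 0.29, limma adjusted p = 0.0195), and CYBRD1, a ferric reductase (1.16 ± 0.33, limma adjusted p = 0.0468). FTL and TFRC were not called by their brightest probe sets (1.68 ± 0.58 and -0.11 ± 0.18). Each had 2 probe sets kept by the filter, and the dimmer 1 passed, higher for FTL and lower for TFRC. BLVRB was lost without any 1 of 4 arrays and CYBRD1 without any 1 of 5. HMOX1, the heme oxygenase that metals and oxidative stress also induce, differed by -0.07 ± 0.21 (limma adjusted p = 0.827).

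Of 15 glucocorticoid-responsive genes 12 did not pass, 2 fell and 1 rose, and the median was -0.26. Over all 8150 genes 6.74% fell and 5.4% rose, with a median of 0.12. FKBP5, a chaperone of steroid receptors, gave 1316, 2672 and 2653 in myoblasts and 117, 65.7 and 429 in myotubes. The myotube values lay at or below the unspiked controls, so the 6.21-fold difference (-2.63 ± 0.43, limma adjusted p = 0.00494) depends on the pseudocount. DUSP1, a MAP kinase phosphatase, gave 14203, 17267 and 16677 in myoblasts and 6055, 4462 and 7490 in myotubes (-1.41 ± 0.21, limma adjusted p = 0.00357). CDKN1C, the p57 cell cycle inhibitor, rose by 2.01 ± 0.36 (limma adjusted p = 0.00804), a call lost without myotube array 2. TSC22D3, a classical glucocorticoid target, differed by 0.05 ± 0.19, and the receptor gene NR3C1 by 0.07 ± 0.18 (limma adjusted p = 0.879 and 0.81). Under the block for laboratory series FKBP5, DUSP1 and CDKN1C were not called (limma adjusted p = 0.0883, 0.0556 and 0.0834), nor were COX11, BLVRB and CYBRD1 (0.311, 0.265 and 0.137). In that fit COX11 was at -0.73, BLVRB at 0.66 and CDKN1C at 1.06. FKBP5 was at -2.02 and DUSP1 at -1.25, and CYBRD1, at 1.42, was larger than without the block. Without myoblast array 1 FKBP5 was at -2.94, DUSP1 at -1.50, CDKN1C at 2.48, COX11 at -1.57 and BLVRB at 1.65, all still called, and CYBRD1 at 1.02, not called.

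**Figure D5:**
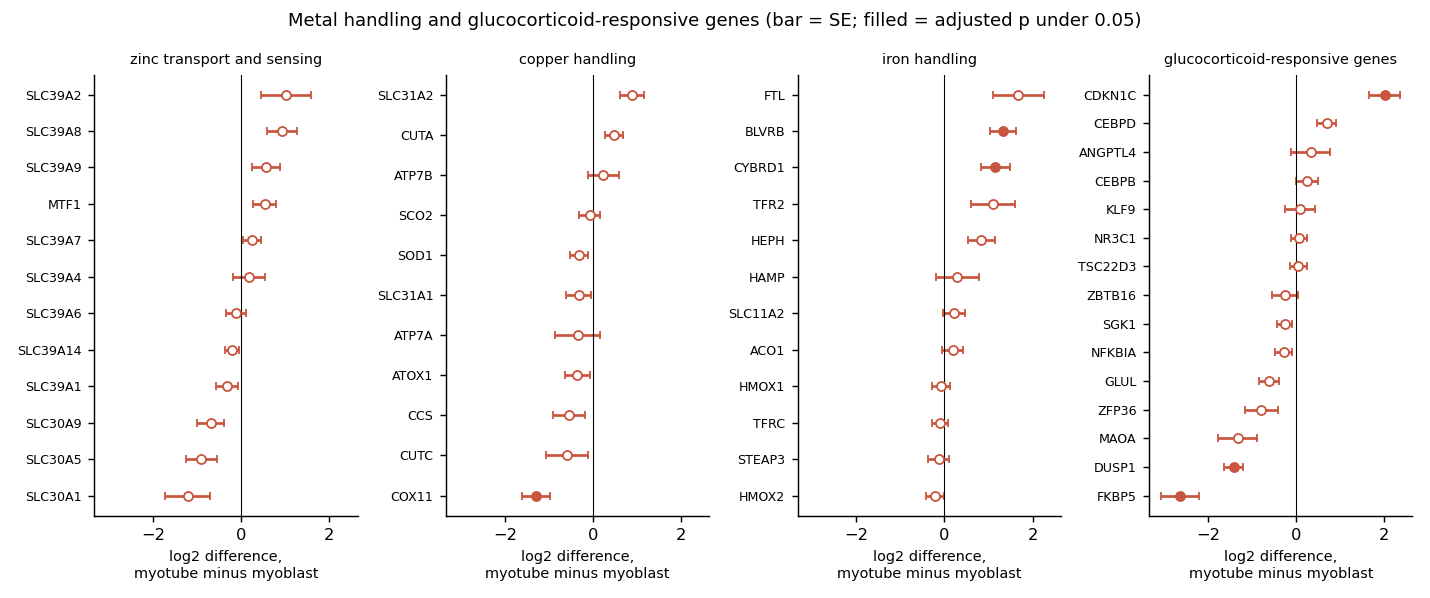
Log2 difference, myotube minus myoblast, with SE bars (n = 3 per group), for the measured genes of 4 lists, filled where limma's adjusted p was under 0.05. Of 12 zinc, 11 copper, 12 iron and 15 glucocorticoid-responsive genes, 0, 1, 2 and 3 are filled, where 12.1% of all 8150 genes were called.

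Among 984 other called genes, those whose log2 values over the 6 arrays followed the mean metallothionein profile most closely were NOL7 (Pearson's r = 0.994), HMGB1 (0.992), ACOT7 (0.986), AXL (0.984), PDIA4 (0.984), MARCKSL1 (0.982), AURKB (0.980) and CCT5 (0.979). All 6 points of each correlation share the arrays and their scaling, and no p is given. HMGB1, a chromatin protein, gave 50066, 27127 and 30296 in myoblasts and 11868, 10971 and 14091 in myotubes. Another of the 3 HMGB1 probe sets kept by the filter was also lower, with a difference of -1.52, but there the signal of myoblast array 1 was 0.840 times the mean of arrays 2 and 3. The likeness was computed for 1 probe set per gene. AXL, a receptor tyrosine kinase, gave 14387, 8902 and 9072 in myoblasts and 6074, 6123 and 5709 in myotubes. The 8 genes were all lower in myotubes, with differences between -0.67 and -1.48, and all were highest on myoblast array 1 by the probe set compared. That shared shape follows from choosing them for likeness to the metallothionein profile, so nothing is read from it.

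The group labels were set beside marker lists. Of 9 measured myotube markers 9 rose in the myotube arrays, with a median of 2.70. Over all 8150 genes 5.4% rose and 6.74% fell. MYH3, TNNC1, TNNI1, TNNT1, ACTA1, CASQ2 and MYBPH were at or below the unspiked controls on all 3 myoblast arrays. They passed the filter through their myotube signals, so their rise is no separate check of the labels. CKM was at or below those controls on all 6 arrays and was left out by the filter. The summed signal of the whole myotube list was 659 to 5064 in myoblasts and 31611 to 32775 in myotubes. Myoblast array 1 was above the other myoblast arrays in MYL11 (2311, 36.8 and 68.7) and MYL1 (979, 120 and 262). The highest unspiked controls of those arrays were 920, 326 and 252, so the MYL1 values lay near or below background. What these 2 markers mean for the metallothioneins was not tested. Of 6 dividing-cell markers 5 fell, with a median of -2.57. MYOD1, MYF5 and MYOG, the defining myogenic factors, were left out by the filter on dim probe sets. Of the 2 measured genes of that myogenic list 0 were called. DES differed by 0.20 ± 0.71 with overlapping groups, and CDH15 by 0.80 ± 0.27 (limma adjusted p = 0.859 and 0.0855). Of 7 fibroblast markers 6 rose, and the summed signal of that list was 48816 to 80068 in myoblasts and 262153 to 278226 in myotubes. For 4 macrophage and leukocyte markers on the array the sum was 1031 to 1634 in myoblasts and 2343 to 3837 in myotubes, with 4 of 7 probe sets at or below the unspiked controls on all arrays. Of 2 measured epithelial markers 1 rose, KRT18, and the list summed to 3448 to 6524 in myoblasts and 11170 to 12407 in myotubes. In the endothelial, hepatocyte and adipocyte lists 1, 0 and 1 genes were measured, and 0 were called. None of these lists fell with the metallothioneins except that of dividing cells, and their part in the result was not tested. In bulk RNA fewer cells of a type and less RNA per cell cannot be told apart.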

How the data were processed

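The authors deposited an intensity for each probe set on each array, a linear signal. The submitters' processing notes name MAS5 for it, with no version. Means between the 2% tails were 1500 to 1501 on every array, as scaling leaves them. Myoblast array 3 took its group from its description, "Myoblast (1-2) G(1-2)", since its title names no cell stage. That wording does not say whether array 3 holds a sample apart from 1 and 2, so n = 3 counts arrays. Pearson's r of its log2 signals with myoblast array 2 was 0.988. For the 3 myoblast arrays the run records number the samples differently from the titles. Of 22283 probe sets, 68 controls and 24 sex-linked ones were left out. The platform annotation gave 19065 probe sets 1 symbol, 1043 several and 2107 none. No probe set with several symbols named a member.

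Values were log2(signal + 197), 197 being the 25th percentile of the table, so folds understate changes of dim genes. A filter kept those whose mean over all arrays reached the 40th percentile. The groups were compared with limma 3.58.1 (lmFit, eBayes with trend, two-sided, Benjamini-Hochberg over all probe sets, threshold 0.05; R 4.3.3, statmod 1.5.0), tested on simulated data. Each gene was read by whichever of its probe sets had the highest mean. The members and lists were chosen with earlier results of these data known. Named genes were all metallothionein probe sets, MTF1, SLC30A1, NR3C1, up to 4 called genes per direction of each related list (else the 2 with the smallest p), and the 8 genes most like the metallothionein profile. SOD1, HMOX1, FTL, TFRC, TSC22D3 and the markers were named after their values were seen. Alternatives were the pseudocount, the filter, scaling, eBayes settings, blocks for replicate number, laboratory series and chip lot, 1 series alone, myoblast arrays 2 and 3 averaged, a gene's mean probe set, and leaving out each array. Figures were drawn with matplotlib 3.10.9.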

Additional observations from a re-analysis of the deposited data

How the results depend on the processing

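The number of arrays limits the precision. All 9 metallothionein probe sets with the suffix were lower in myotubes in all 19 other settings. Their groups did not overlap, so leaving out or averaging arrays could not change that direction. Nor could another pseudocount, filter or eBayes setting, so nothing is read from it. Their count past the threshold, 8 of 10 members, was 7 to 9 in the settings that keep all arrays or average 2, and 6 to 9 with 1 array left out. The member median of -2.04 was -2.98 with the laboratory series as a block and in the first series alone, and -1.69 to -2.26 with 1 array left out. The count over all probe sets, 1510, was 919 by eBayes without trend, 338 with the series as a block, 401 with chip lot as a random block, 194 in the first series alone and 580 with myoblast arrays 2 and 3 averaged. It was 487 to 3463 with 1 array left out, the highest without myoblast array 1. Of 50 related genes 6 were called, where 12.1% of all 8150 genes were. The count was 1 with the series as a block, 3 with chip lot as a random block, 3 with myoblast arrays 2 and 3 averaged, 0 by limma in the first series alone (4 at an unadjusted p under 0.05), and 2 to 14 with 1 array left out. The replicate number did not pair the arrays: the correlations of deviations from the group mean were 0.25, -0.184 and 0.38 for numbers 1, 2 and 3. With it as a block 2313 probe sets and 11 related genes were called, and the member median was -2.04. The fit of the first series has 1 myoblast array, whose spread is taken to equal that of the myotubes.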
